A study of Mus musculus with 70 samples.

Results

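The receptors of interleukin-6 (IL-6), IL-10, IL-12, IL-17 and the interferons were examined as 10 genes in regulatory T cells (Tregs), which were Il10ra, Il10rb, Il6ra, Il6st, Il27ra, Il12rb1, Il12rb2, Ifngr1, Ifnar1 and Il17ra. They were taken by symbol, and each symbol matched 1 of the 53465 gene IDs in the count table. All 10 were among the 13173 protein-coding genes tested. RNA had been measured in Tregs of 6 tissues, namely back skin, colon, lungs, spleen, blood and visceral adipose tissue (VAT), of 5 untreated male mice aged 16.6 to 18.6 weeks. In all 6 tissues ST2+ CD44hi and ST2- CD44hi Tregs were sorted, ST2 being the IL-33 receptor and high CD44 marking effector Tregs. ST2- CD44lo CD62L+ Tregs, the central type, were sorted from spleen and lungs as well, so that 14 groups of 5 libraries, all from the same 5 mice, were made. Every mouse carried the allele Foxp3tm4(YFP/icre)Ayr on a B6.129(Cg) background, which expresses a YFP and Cre fusion from the Foxp3 locus, and no other genotype was sequenced. Up to 220 live single CD4+ YFP+ cells that were CD45.2+ and, among other gates, lacked CD11b and CD8 were sorted per library, after enrichment of spleen and lung cells for CD4 with magnetic beads.

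Apart from that of IL-17, cytokine receptors of this kind pair a chain that binds the cytokine with a chain that signals. Once bound, these receptors activate Janus kinases and STAT proteins. IL-10 binds IL-10Rα (Il10ra) and signals with IL-10Rβ (Il10rb), mainly through STAT3, while IL-6 binds IL-6Rα (Il6ra) and signals through gp130 (Il6st), which is shared by a family of cytokines. IL-10 signals are known to be needed by Tregs that restrain intestinal inflammation, IL-6 is known to oppose Treg induction, and IL-12, IL-27 and interferon-γ are known to act on Th1-like Tregs.

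Libraries with over 1000000 counts were kept, which left 67 of 70, with 4 libraries of blood ST2+ and 3 of colon ST2+ Tregs. Kept libraries held 1304560 to 2759926 counts (median 2039002), so that 1 CPM (count per 1000000 counts, scaled with TMM factors) stood for about 2 counts. Foxp3 lay at 105 to 414 CPM in all of them, and Il1rl1, which encodes ST2, at 230.0 to 1614 CPM in ST2+ and 0 to 195 CPM in ST2- libraries. The 3 colon ST2+ libraries stood apart. The summed level of 12 macrophage and monocyte genes was 1373 to 1728 CPM in them, with counts of all 12 genes, against 33.5 to 292 CPM in colon ST2- libraries, although the gate removed CD11b+ cells. These genes also ran from 119.9 to 397 CPM in VAT ST2+ and 52.2 to 181 CPM in blood ST2+ libraries, against 18.7 to 130.1 and 10.5 to 93.8 CPM in the ST2- libraries of those tissues. Counts were found for 11 of the 12 in VAT ST2+ (Itgam at 0) and 5 of the 12 in blood ST2+ libraries, where Csf1r, C1qa, Adgre1, Cd68, Mrc1, Cd14 and Spi1 were at 0. In spleen and lungs they were at 2.82 to 17.99 and 13.4 to 30.9 CPM in ST2+ libraries, and at 2.90 to 26.5 and 11.1 to 38.8 CPM in ST2- libraries. In every sorted population of this kind, fewer cells of a type and less RNA per cell cannot be told apart.

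Per kilobase of exon, averaged over the 14 groups, Ifngr1 was the most abundant of the 10 at 301 CPM per kb, ahead of Il27ra at 107 and Il10ra at 81.6. Ifnar1 lay at 67.8, Il10rb at 37.2 and Il17ra at 22.99 CPM per kb. The IL-6 receptor chains were lower, with 20.2 CPM per kb for Il6st and 8.52 for Il6ra, and Il12rb1 lay between them at 14.3. Il12rb2, the chain that is particular to the IL-12 receptor, was near the limit of detection at 0.499 CPM per kb, with 255 counts in all 67 libraries. In the GRCm38 annotation Il12rb2 shares exon bases with Serbp1 on the opposite strand, Il6ra with the antisense gene Gm42809, and Il27ra with Palm3 on the opposite strand. The strand setting of the counting is not given in the sources used here, so reads of these pairs may not have been told apart.

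Promoter windows, 250 bases before to 50 after the start site in RefSeq on GRCm38.p6, were found for 5 of the 10 genes (Il6ra, Il6st, Il12rb2, Ifngr1 and Ifnar1) and not for Il10ra, Il10rb, Il27ra, Il12rb1 or Il17ra. The windows of Il6ra, Il6st and Ifngr1 are shown because Ifngr1 and Il6ra had the strongest tests between tissues and Il6st was called by ST2. Il6ra lies at chr3:89864059-89913196 on the minus strand, Il6st at chr13:112464070-112510086 and Ifngr1 at chr10:19591949-19610229, both on the plus strand. Capitals mark matches, on either strand, to the GATA factor motif with the letters AGATAA, the KLF motif with the letters CCACCC and the GC box with the letters GGGCGG. TTCNNNGAA (STAT), the interferon-stimulated response element, TCACACCT (T-box), GTAAACA (FOXO) and CTTTGA (TCF/LEF) were searched as well and are not among these letters in the 3 windows.
Il6ra chr3:89913147-89913446, minus strand: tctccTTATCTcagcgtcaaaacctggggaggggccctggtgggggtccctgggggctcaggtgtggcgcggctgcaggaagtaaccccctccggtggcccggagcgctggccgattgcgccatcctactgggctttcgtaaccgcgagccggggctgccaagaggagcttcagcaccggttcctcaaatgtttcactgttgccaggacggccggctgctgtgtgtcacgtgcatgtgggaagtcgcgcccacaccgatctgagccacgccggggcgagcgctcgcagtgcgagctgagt
Il6st chr13:112463820-112464119, plus strand: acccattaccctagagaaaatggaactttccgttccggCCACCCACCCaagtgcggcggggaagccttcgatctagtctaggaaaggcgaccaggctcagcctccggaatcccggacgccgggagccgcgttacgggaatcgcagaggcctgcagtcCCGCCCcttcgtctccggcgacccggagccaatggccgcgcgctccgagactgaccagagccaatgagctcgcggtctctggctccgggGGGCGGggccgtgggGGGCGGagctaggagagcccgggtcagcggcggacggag
Ifngr1 chr10:19591699-19591998, plus strand: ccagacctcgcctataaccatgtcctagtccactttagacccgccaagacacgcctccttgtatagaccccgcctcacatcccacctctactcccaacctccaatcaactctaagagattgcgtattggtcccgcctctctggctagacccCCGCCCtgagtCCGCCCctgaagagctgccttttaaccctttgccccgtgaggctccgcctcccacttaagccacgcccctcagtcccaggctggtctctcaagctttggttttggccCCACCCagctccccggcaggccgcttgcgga
The Il6ra window held 1 match, to GATA, a motif found in 11.2% of the 32851 promoter windows of the table. The Il6st window held 3 GC boxes and 2 KLF matches that share bases, and the Ifngr1 window held 2 GC boxes and 1 KLF match. These were common letters, with a GC box in 35.7% and a KLF match in 31.5% of all windows. The STAT letters occurred in the Ifnar1 and Il12rb2 windows and in 8.30% of all windows. A match of letters describes the window and is not a binding site.

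Across the 6 tissues, the receptor genes differed widely, and Ifngr1, Il6ra, Il6st, Il10ra, Ifnar1 and Il17ra each had tissues in which they were high or low in both CD44hi populations. Among ST2- CD44hi Tregs, 10 of 10 genes differed between tissues (edgeR quasi-likelihood F test, adjusted p of at most 0.05), where 43.5% of all 13173 genes did. Among ST2+ CD44hi Tregs 8 of 10 did, against 47.6% of all genes, and Il12rb1 (adjusted p = 0.164) and Il12rb2 (adjusted p = 0.7997) did not pass. With all adjusted p taken over the 13173 genes, the strongest tests were those of Ifngr1 (2.38e-16 in ST2- and 1.34e-10 in ST2+ Tregs) and, in ST2- Tregs, Il6ra (1.35e-12). Without mouse 1 the test of Il12rb1 in ST2- Tregs gave an adjusted p of 0.0560, and without mouse 3 that of Il10rb in ST2+ Tregs gave 0.0746. When the 14 groups were put in order of a gene's mean log2 CPM, the 13 steps between neighbours were tested by edgeR contrasts. For none of the 10 genes did a step reach both an adjusted p of at most 0.05 and a fold of at least 1.5. The Ifngr1 step from blood ST2- CD44hi down to spleen ST2+ Tregs had an adjusted p of 0.00381, with a log2 step of 0.53 that was under this fold.

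**Figure D1:**
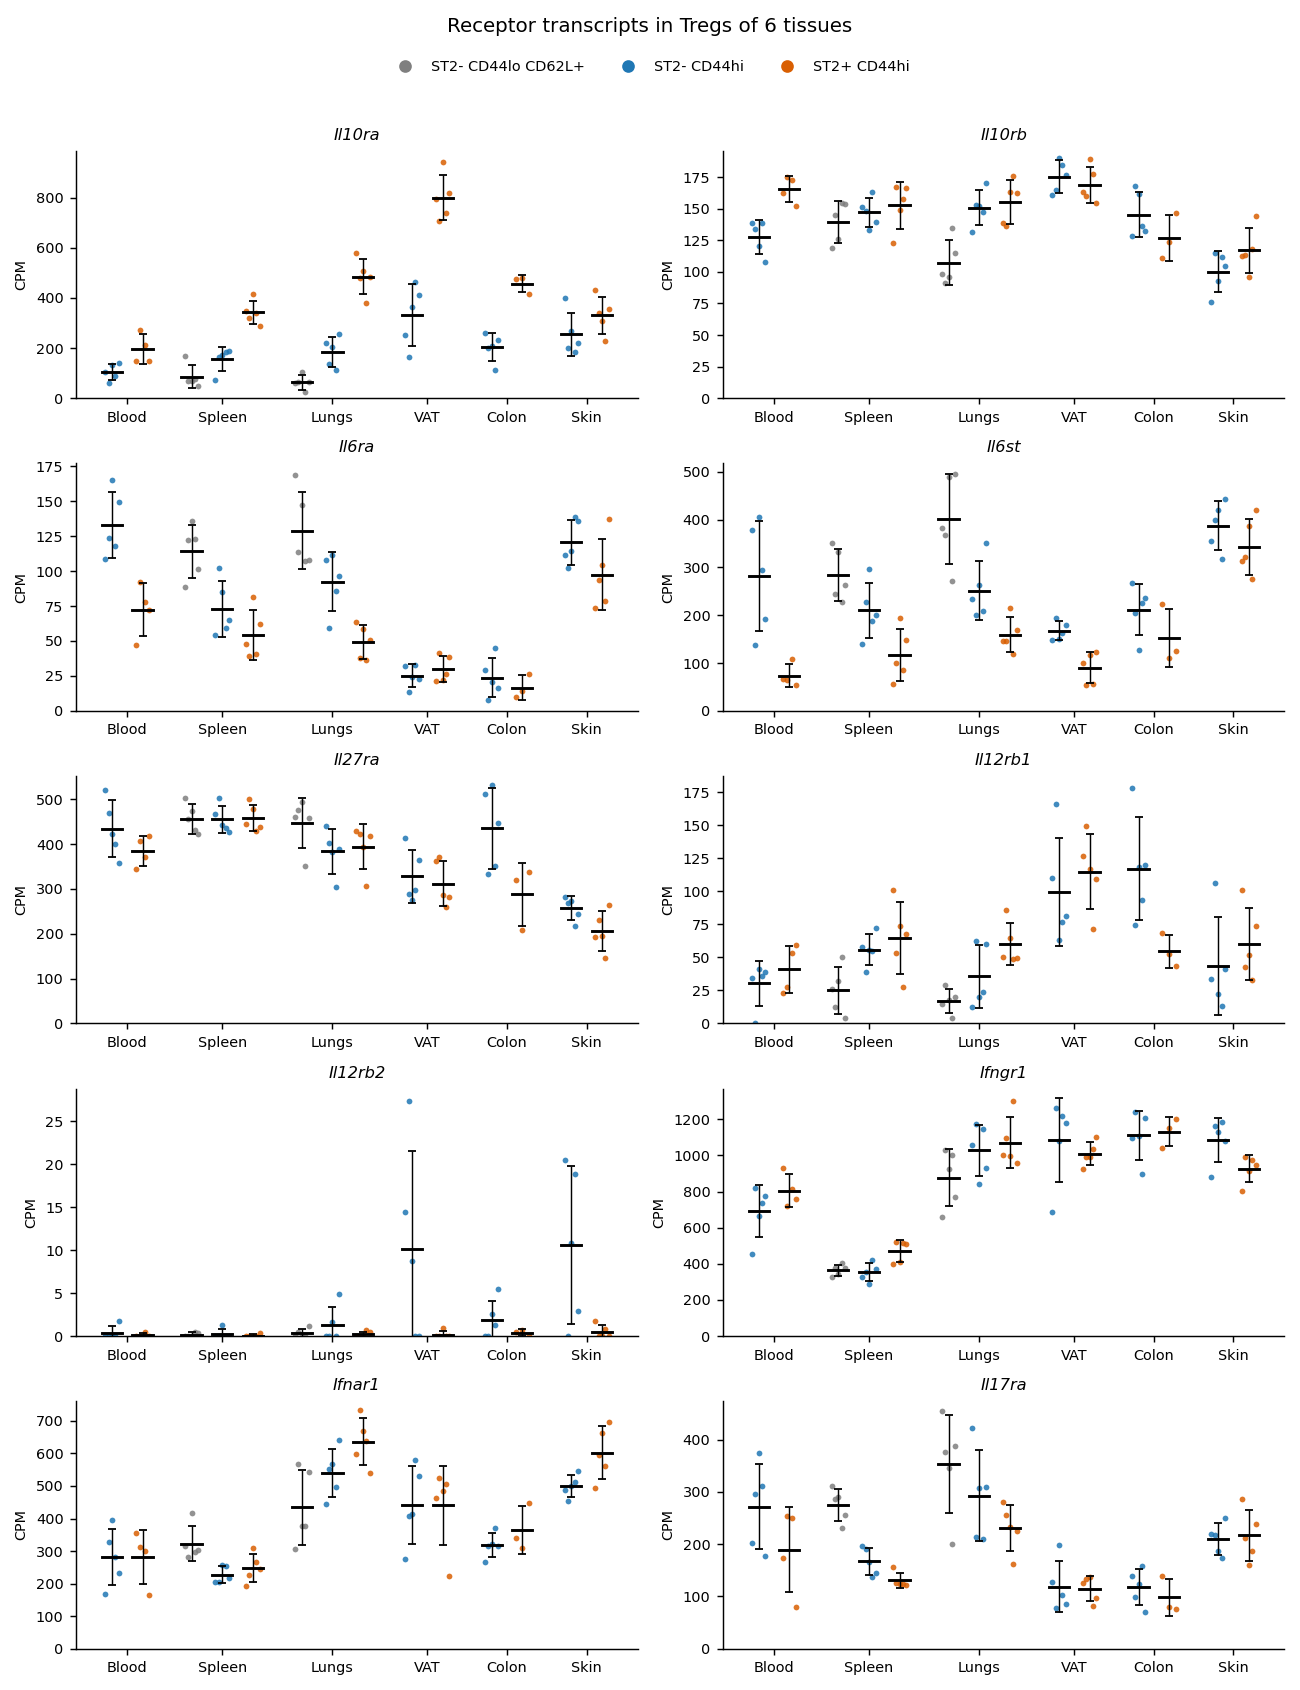
Level of each receptor gene in every kept library (vertical axis, CPM, starting at 0), by tissue and by Treg population (gray ST2- CD44lo CD62L+, blue ST2- CD44hi, orange ST2+ CD44hi). Points are libraries, of 3 to 5 mice per group, and bars give the mean and SD. Il10ra in VAT ST2+ libraries lies at 705 to 941 CPM, above all other libraries, and Ifngr1 is lowest in the 3 spleen groups.

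**Figure D2:**
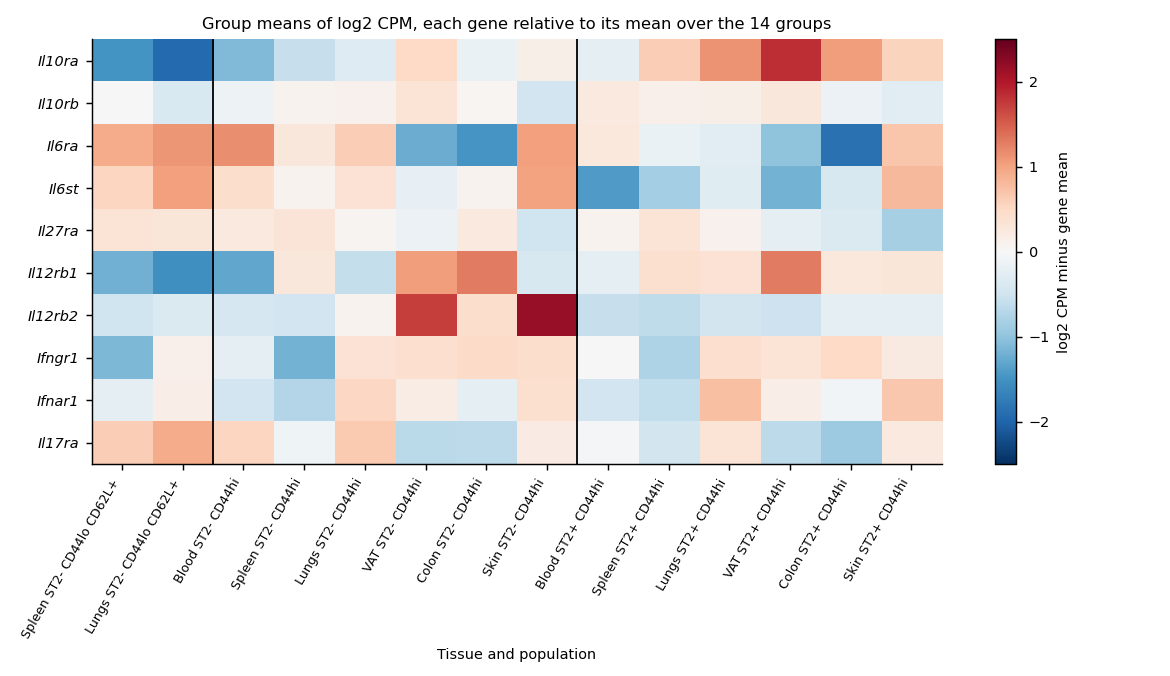
Mean log2 CPM (prior count of 2) of each receptor gene in the 14 groups, minus the mean of that gene over the groups. Rows are genes, columns are groups ordered by population and then tissue, and red stands for above and blue for below the gene's mean. Il10ra is lowest in the central Tregs at the left and highest in VAT ST2+ Tregs, while Il6ra is lowest in VAT and colon Tregs of both CD44hi populations.

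ST2+ were compared with ST2- CD44hi Tregs of the same tissue to ask how the receptors differ with ST2. A gene was called at a fold of at least 1.5 and an adjusted p of at most 0.05. Il10ra was higher in ST2+ Tregs of spleen, lungs and VAT, and Il6st was lower in ST2+ Tregs of blood and VAT. In blood 1 of 10 genes was called, where 4.04% of all genes were, and in spleen 1 of 10 against 0.319%. In lungs 1 of 10 was called against 0.782% of all genes, and in VAT 2 of 10 against 3.12%. In colon 0 of 10 were called against 0.0683% of all genes, and in skin 0 of 10 against 0.213%. At an unadjusted p under 0.05, 2 of the 10 passed in colon (Il10ra and Il27ra) and 2 in skin (Il27ra and Il12rb2), where 5.04% and 8.46% of all genes did. The median log2 difference of the 10 genes ran from -0.36 in colon to 0.04 in lungs, and that of all genes from -0.01 to 0.03. With 10 genes, counts of 0 to 2 do not set the receptors apart from other genes. All libraries came from the same 5 mice, with several libraries of each. The reported fit had no term for the mouse, so its p-values rest on the spread between libraries within groups, taken as independent. They speak only for these 5 animals.

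Groups that did not overlap were counted as well. In blood 4 of 10 genes did not overlap between ST2+ and ST2- libraries (Il10ra, Il10rb, Il6ra and Il6st), where 5.14% of all genes did not. In VAT these were 2 of 10 (Il10ra and Il6st) against 3.34%, and in colon 2 of 10 (Il10ra and Il12rb1) against 5.68%. In spleen it was 1 of 10 against 2.43% and in lungs 1 of 10 against 3.65%, both times Il10ra. In skin 0 of 10 were apart, against 1.42% of all genes. Il6st was lower in the ST2+ library in all mice of all 6 tissues that gave both libraries, and Il10ra was the higher in all of them. The share of all genes that kept their direction in every such pair was not determined.

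**Figure D3:**
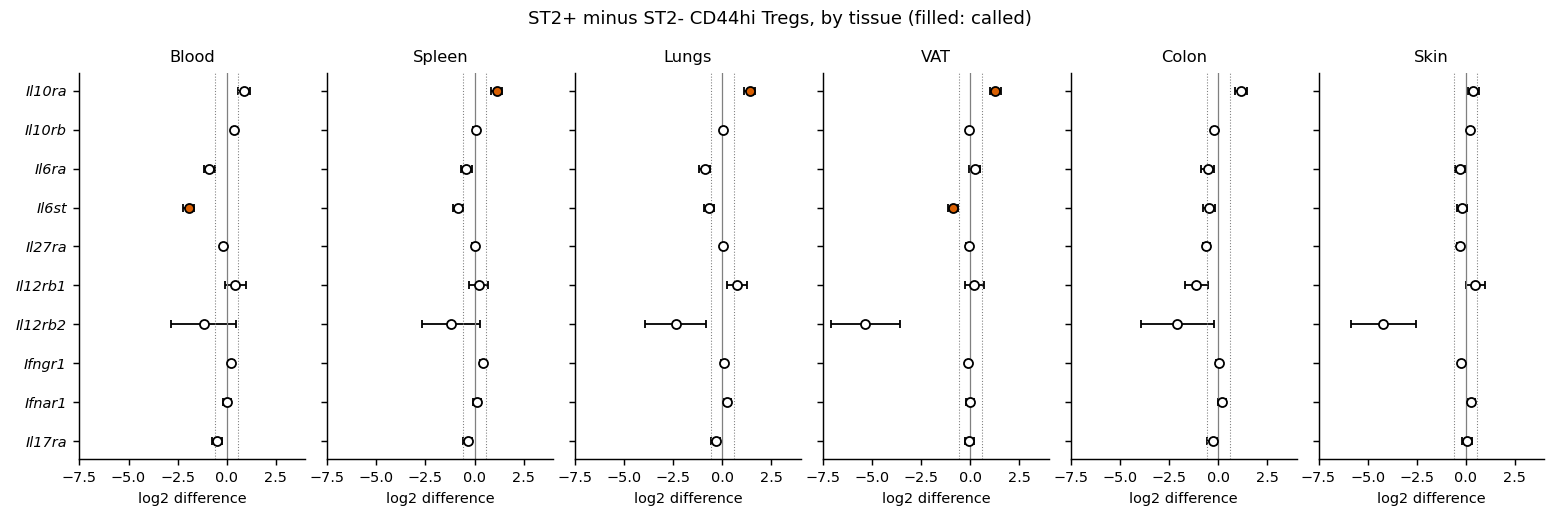
Difference between ST2+ and ST2- CD44hi Tregs of each receptor gene (horizontal axis, log2, ST2+ minus ST2-), in 6 tissues, with bars of 1 SE from the fit over all libraries. Filled points passed the test and dotted lines mark a fold of 1.5. Il10ra lies to the right of 0 in all 6 tissues and Il6st to the left, and Il12rb2, which had few counts, has wide bars.

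Il10ra, the chain that binds IL-10, varied widely with both tissue and population, from 62.8 ± 28.3 CPM (SD, n = 5) in central Tregs of lungs to 800.0 ± 90.9 CPM (SD, n = 5) in VAT ST2+ Tregs. By mean log2 CPM, the 5 highest of the 14 groups were ST2+ Tregs. By mean CPM, VAT ST2- Tregs (331.5) and skin ST2+ Tregs (331.3) were level. Of the 91 pairs of groups, 51 differed by the test, where 12.9% of such comparisons did over all genes. In lungs the 5 ST2- libraries lay at 219, 137, 205, 111 and 256 CPM in the order of mice 1 to 5, and the 5 ST2+ libraries at 579, 478, 506, 379.8 and 481 CPM. Every ST2+ library was above every ST2- library, with a log2 difference of 1.39 ± 0.28 (SE), adjusted p = 0.00267, which was 0.0528 in a fit that kept all 70 libraries. In VAT the ST2- libraries were at 250.5, 165, 365, 465 and 413 CPM and the ST2+ libraries at 795, 705, 941, 739.6 and 819 CPM. The groups did not overlap either, and the log2 difference was 1.27 ± 0.28 (SE), adjusted p = 0.00220.

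In spleen, Il10ra was at 71.4, 165, 172, 182 and 187 CPM in ST2- and 349, 320.1, 414, 341 and 287 CPM in ST2+ libraries. Again no library of one population reached the other, and the log2 difference was 1.14 ± 0.28 (SE), adjusted p = 0.0421. This call was near the threshold, since without mouse 1, 2, 3, 4 or 5 the adjusted p was 0.205, 0.136, 0.306, 0.0809 and 0.0999, with differences of 0.95 to 1.27. It was 0.355 with all 70 libraries and 0.0579 without colon libraries. Blood ST2- libraries held 106, 61.9, 131, 90.3 and 142 CPM of Il10ra and the 4 ST2+ libraries 149, 273, 211 and 149 CPM, all higher. The log2 difference of 0.88 ± 0.30 (SE), adjusted p = 0.0706 did not pass the test. With each mouse as a block the blood difference passed, at 0.94 with an adjusted p of 0.0310.

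Other marker genes also moved with ST2 in the tissues in which receptors were called. The summed level of 10 epithelial genes was 127 to 208 CPM in spleen ST2+ and 53.2 to 88.2 CPM in spleen ST2- libraries, and 107 to 173 and 27.8 to 106 CPM in those of lungs, without overlap in either tissue. In spleen 6 of the 10 had counts in ST2+ libraries, with Krt5, Krt14, Sftpc and Scgb1a1 at 0, and 3 of 10 in ST2- libraries, with Krt8, Lypd8 and Zg16 at 0 too. In lungs 7 of 10 had counts in ST2+ libraries, with Krt8, Krt14 and Lypd8 at 0, and 8 of 10 in ST2- libraries, with Krt8 and Krt14 at 0. Epcam, which encodes an epithelial adhesion molecule, was at 121 to 186 CPM in ST2+ and 36.8 to 71.7 CPM in ST2- libraries of spleen, and at 36.4 to 69.5 and 0.647 to 16.7 CPM in those of lungs. Of 6 fibroblast and endothelial genes, the sum was 161 to 222 CPM in blood ST2+ libraries, with counts of 4 of 6 and Pdgfra and Cdh5 at 0. In blood ST2- libraries it was 237 to 347 CPM, without overlap, and came from Pecam1 alone. The part of these genes in the Il10ra values of spleen and lungs and the Il6st values of blood was not tested.

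Colon ST2- libraries were at 259.6, 199.8, 208, 113 and 233 CPM of Il10ra and the 3 ST2+ libraries, which held macrophage transcripts, at 474, 478 and 417 CPM. The groups did not overlap, but the log2 difference of 1.17 ± 0.31 (SE), adjusted p = 0.190 did not pass the test. The paper, which used voom with quality weights, lists Il10ra among the genes that differed by ST2 in spleen, lungs, VAT and colon. It lists Il6st for blood and spleen and not for VAT, and Il6ra for blood and lungs. The calls made here differ from that list for Il10ra in colon, Il6st in spleen and VAT and Il6ra in blood and lungs. Macrophages are known to express Il10ra, and the part of macrophage transcripts in the colon, VAT and blood values was not tested. Skin was the tissue with the smallest difference, with ST2- libraries at 398, 198, 269.8, 185 and 219.9 CPM and ST2+ libraries at 429.7, 339, 307, 227 and 354 CPM. The 2 groups overlapped, although the ST2+ library was the higher in 5 of 5 mice, and the log2 difference was 0.38 ± 0.28 (SE), adjusted p = 0.818. Whether the ST2 difference of Il10ra varied between the 6 tissues was tested with the interaction, which it did not pass (adjusted p = 0.565).

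Between tissues, Il10ra was lowest in blood and highest in VAT in both CD44hi populations. The log2 difference of blood minus VAT was -1.64 ± 0.28 (SE), adjusted p = 2.07e-05 in ST2- Tregs and -2.03 ± 0.31 (SE), adjusted p = 1.02e-06 in ST2+ Tregs. Spleen was below VAT in both populations too, with spleen minus VAT at -1.09 ± 0.28 (SE), adjusted p = 0.00705 in ST2- and -1.22 ± 0.27 (SE), adjusted p = 0.000924 in ST2+ Tregs. Among ST2+ Tregs skin was below VAT, with VAT minus skin at 1.27 ± 0.28 (SE), adjusted p = 0.000327, while in ST2- Tregs skin was above blood, with blood minus skin at -1.26 ± 0.28 (SE), adjusted p = 0.000332. From high to low, the means of Il10ra in ST2- CD44hi Tregs were 332 ± 122 CPM (SD) in VAT, 254 ± 86.7 in skin, 203 ± 55.1 in colon, 185 ± 59.7 in lungs, 156 ± 47.8 in spleen and 106 ± 31.9 in blood. Those in ST2+ CD44hi Tregs were 800.0 ± 90.9 CPM (SD) in VAT, 485 ± 71.3 in lungs, 456 ± 34.2 in colon, 342 ± 46.9 in spleen, 331 ± 73.8 in skin and 195 ± 59.2 in blood, and in central Tregs 85.7 ± 46.4 CPM (SD) in spleen and 62.8 ± 28.3 in lungs. Of 15 tissue pairs, 5 were called in ST2- and 6 in ST2+ Tregs, where 11.8% and 12.1% of all such comparisons over the 13173 genes were.

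Il10rb, the signalling chain that IL-10 shares with IL-22 and other cytokines, stayed within a narrower range, from 100.2 ± 15.95 CPM (SD, n = 5) in skin ST2- to 176 ± 12.7 CPM (SD, n = 5) in VAT ST2- Tregs. It was highest in VAT ST2- libraries, at 161, 165, 190.4, 185 and 177 CPM, and lowest in skin ST2- libraries, at 76.1, 115, 93.1, 112 and 105 CPM, without overlap. The log2 difference of VAT minus skin was 0.81 ± 0.12 (SE), adjusted p = 4.06e-07, and that of lungs minus skin was 0.59 ± 0.12 (SE), adjusted p = 0.000119. In ST2+ Tregs none of the 15 tissue pairs reached both the fold of 1.5 and the adjusted p of 0.05. The order of Il10rb means in ST2- CD44hi Tregs was VAT at 176 ± 12.7 CPM (SD), lungs at 151 ± 13.9, spleen at 147 ± 11.5, colon at 145 ± 18.05, blood at 128 ± 13.5 and skin at 100.2 ± 15.95. ST2+ CD44hi Tregs had VAT at 169 ± 14.5 CPM (SD), blood at 166 ± 10.6, lungs at 155 ± 17.2, spleen at 153 ± 18.4, colon at 127 ± 18.2 and skin at 117 ± 17.6, and central Tregs had spleen at 139.6 ± 16.5 CPM (SD) and lungs at 107 ± 17.9. Blood was the tissue in which Il10rb differed most by ST2, with 139, 134, 121, 139 and 108 CPM in ST2- and 162, 175, 173 and 152 CPM in ST2+ libraries. These groups did not overlap, and the log2 difference of 0.37 ± 0.12 (SE), adjusted p = 0.0684 was under the fold of 1.5.

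Il6st, which encodes gp130, fell in ST2+ Tregs of blood and VAT. In blood the 5 ST2- libraries lay at 378, 138, 405, 295 and 191 CPM and the 4 ST2+ libraries at 67.1, 65.4, 108 and 54.2 CPM. All 4 ST2+ libraries were below all 5 ST2- libraries, and Il6st fell by 1.94 on the log2 scale (SE 0.29, adjusted p = 4.74e-06), a 3.83-fold lower level. The blood ST2+ library of mouse 3 came from 55 cells, and without the 2 kept libraries of under 100 cells the difference was -1.87 with an adjusted p of 0.000117. In VAT Il6st was at 148, 195, 150.2, 164 and 180.0 CPM in ST2- and 100.1, 54.4, 117, 56.04 and 123 CPM in ST2+ libraries. The ST2+ libraries were again all lower, with a log2 difference of -0.89 ± 0.26 (SE), adjusted p = 0.0359. This call was lost without mouse 2, 4 or 5 (adjusted p = 0.274, 0.174 and 0.0634) with sorted cell numbers as covariate (0.0834), with all 70 libraries (0.136), with voom (0.248), in a fit of the VAT CD44hi libraries only (0.153) and without libraries of under 100 cells (0.0853), VAT ST2- libraries having been made from 93 to 220 cells.

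In spleen the ST2- libraries held 141, 227, 297, 187 and 200.3 CPM of Il6st and the ST2+ libraries 56.8, 99.02, 194, 85.7 and 149 CPM, lower in 5 of 5 mice. The ranges overlapped and the log2 difference of -0.84 ± 0.26 (SE), adjusted p = 0.218 did not pass. In lungs the ranges were 199.6 to 352 CPM in ST2- and 119 to 216 CPM in ST2+ libraries (-0.66, SE 0.25, adjusted p = 0.297). In colon they were 126 to 267 and 111 to 223 CPM, and in skin 318 to 444 and 275 to 420.3 CPM, where the log2 difference was -0.18 ± 0.25 (SE), adjusted p = 0.973. The interaction of tissue and ST2 gave Il6st an adjusted p of 0.0549, the smallest of the 10 genes, and with each mouse as a block it gave 0.0407. Of all genes 1.43% passed this interaction test, and 0 of the 10 receptor genes did in the fit without the block, with 4 of 10 at an unadjusted p under 0.05, against 13.3% of all genes. Il6st was called by DESeq2 (adjusted p = 0.00802), which called 3.62% of all genes, and the fit with the block called 1.82%.

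Skin Tregs were the CD44hi Tregs with the most Il6st, at 388 ± 50.6 CPM (SD, n = 5) in ST2- and 343 ± 58.7 CPM (SD, n = 5) in ST2+ Tregs. From high to low, the means of Il6st in ST2- CD44hi Tregs were 388 ± 50.6 CPM (SD) in skin, 282 ± 116 in blood, 252 ± 61.2 in lungs, 212 ± 52.8 in colon, 210.5 ± 57.6 in spleen and 167 ± 19.9 in VAT. Those in ST2+ CD44hi Tregs were 343 ± 58.7 CPM (SD) in skin, 159 ± 36.4 in lungs, 153 ± 60.8 in colon, 117 ± 54.6 in spleen, 90.01 ± 32.8 in VAT and 73.6 ± 23.5 in blood, and in central Tregs 402 ± 93.5 CPM (SD) in lungs and 284 ± 54.4 in spleen. In ST2+ Tregs skin exceeded each of the 5 other tissues, with log2 differences of -2.22 ± 0.29 (SE), adjusted p = 8.43e-09 for blood minus skin, -1.93 ± 0.26 (SE), adjusted p = 6.24e-08 for VAT minus skin and -1.55 ± 0.26 (SE), adjusted p = 2.42e-06 for spleen minus skin. Lungs minus skin was -1.10 ± 0.26 (SE), adjusted p = 0.000916, and colon minus skin -1.16 ± 0.31 (SE), adjusted p = 0.00468. In ST2- Tregs skin exceeded 3 tissues, which were spleen, VAT and colon, and did not differ by the test from blood (blood minus skin -0.46 ± 0.25 (SE), adjusted p = 0.154) or lungs.

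**Figure D4:**
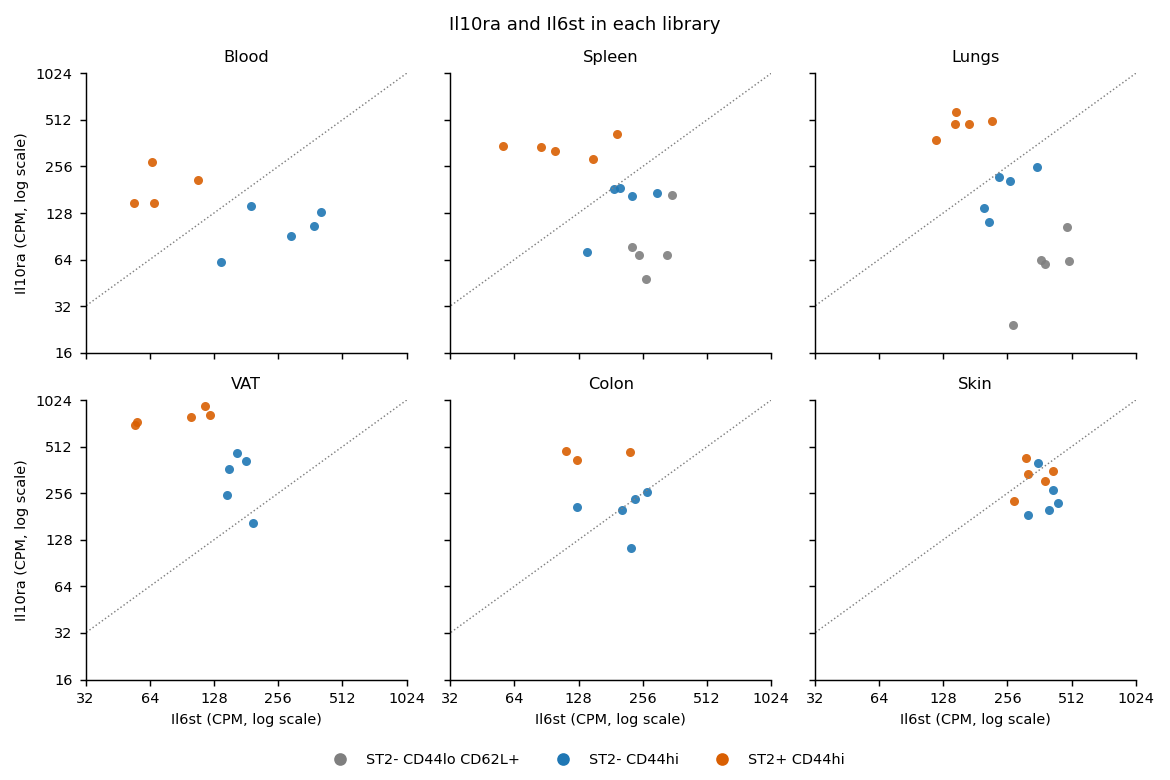
Il10ra against Il6st in each kept library of 6 tissues, both in CPM on log2-scaled axes, with gray points for ST2- CD44lo CD62L+, blue for ST2- CD44hi and orange for ST2+ CD44hi Tregs and a dotted line where the CPM are equal. In blood, spleen, lungs, VAT and colon all ST2+ libraries lie above the line, and in skin the populations are mixed.

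Within a library, the ratio of Il10ra to Il6st CPM was taken to compare groups, and not to compare the levels of these genes with each other. Its geometric mean was 0.391 in blood ST2- and 2.65 in blood ST2+ Tregs, 0.721 and 3.18 in spleen, and 0.719 and 3.08 in lungs. VAT had the highest ratio of either CD44hi population, 1.87 in ST2- and 9.39 in ST2+ Tregs, whereas colon had 0.951 and 3.12 and skin 0.634 and 0.956. On the log2 scale the ratios of ST2- and ST2+ libraries did not overlap in blood, spleen, lungs, VAT or colon, and they overlapped in skin (-1.01 to 0.16 against -0.33 to 0.46). Il10ra alone was also without overlap in the former tissues, and Il6st was lower in the ST2+ library of every mouse with both. The separation of the ratio follows from these differences and is no further support. The share of other gene pairs without overlap was not determined. Central Tregs had the lowest ratios, 0.279 in spleen and 0.145 in lungs.

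Il6ra, the chain that binds IL-6, was low in VAT and colon and higher in blood and skin, in both CD44hi populations. Colon ST2- libraries held 28.97, 7.66, 20.8, 44.9 and 16.3 CPM and VAT ST2- libraries 32.3, 13.4, 24.2, 33.1 and 23.1 CPM. Skin ST2- libraries held 112, 102, 114, 138 and 136 CPM, and blood ST2- libraries 108, 124, 165, 118 and 149.8 CPM. No colon or VAT library reached a skin or blood library of this population. The log2 differences were 2.47 ± 0.29 (SE), adjusted p = 8.82e-10 for blood minus colon, 2.39 ± 0.29 (SE), adjusted p = 3.11e-09 for blood minus VAT and -2.32 ± 0.29 (SE), adjusted p = 8.57e-09 for colon minus skin. Lungs exceeded VAT by 1.86 ± 0.28 (SE), adjusted p = 1.20e-05, and 9 of 15 tissue pairs were called in ST2- as in ST2+ Tregs, the most of the 10 genes in either population. By their Il6ra means, ST2- CD44hi Tregs ranked as blood at 133 ± 23.6 CPM (SD), skin at 121 ± 15.9, lungs at 92.2 ± 21.1, spleen at 73.1 ± 20.1, VAT at 25.2 ± 8.02 and colon at 23.7 ± 14.1. Ranked alike, ST2+ CD44hi Tregs had skin at 97.3 ± 25.4 CPM (SD), blood at 72.3 ± 19.1, spleen at 54.3 ± 17.7, lungs at 49.2 ± 12.1, VAT at 29.9 ± 9.36 and colon at 16.7 ± 8.69, and central Tregs lungs at 129 ± 27.8 CPM (SD) and spleen at 114 ± 18.9. In ST2+ Tregs colon libraries held 9.59, 14.01 and 26.4 CPM and skin libraries 73.3, 93.4, 104, 78.4 and 137 CPM, with colon minus skin at -2.55 ± 0.36 (SE), adjusted p = 3.16e-07.

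By ST2, Il6ra had its lowest blood values in ST2+ Tregs, whose libraries held 46.8, 92.5, 77.9 and 71.9 CPM, below all 5 ST2- libraries. The log2 difference of -0.88 ± 0.29 (SE), adjusted p = 0.0635 did not pass, and with each mouse as a block it was -0.91 with an adjusted p of 0.0466. In lungs the ST2- libraries held 108, 59.4, 112, 85.6 and 96.4 CPM and the ST2+ libraries 63.5, 37.9, 58.3, 36.1 and 50.4 CPM, lower in 5 of 5 mice with overlapping ranges. This difference, -0.90 ± 0.27 (SE), adjusted p = 0.103, did not pass in the fit over all groups, and passed at -0.90 (adjusted p = 0.0489) where only the lung ST2+ and ST2- libraries were fitted. In VAT, where Il6ra was low in both, the values of ST2+ libraries were 21.1, 41.3, 22.1, 26.6 and 38.3 CPM (0.23, SE 0.28, adjusted p = 0.769).

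The IL-12 family receptors came next. Il27ra, the chain particular to IL-27, was lowest in skin, at 257 ± 26.4 CPM (SD, n = 5) in ST2- and 206 ± 44.8 CPM (SD, n = 5) in ST2+ Tregs, and highest in spleen ST2+ Tregs at 458 ± 29.7 CPM (SD, n = 5). Skin ST2+ libraries held 194, 232, 194, 146 and 265 CPM and spleen ST2+ libraries 445, 499.8, 478, 430.1 and 438 CPM. They did not overlap, with spleen minus skin at 1.15 ± 0.14 (SE), adjusted p = 5.07e-10. In ST2+ Tregs skin was below blood (0.90, SE 0.14, adjusted p = 9.45e-07), lungs (0.93, SE 0.14, adjusted p = 3.08e-07) and VAT (0.59, SE 0.14, adjusted p = 0.000606) as well, and in ST2- Tregs it was below blood, spleen and colon. The order of Il27ra means in ST2- CD44hi Tregs was spleen at 455 ± 30.99 CPM (SD), colon at 435 ± 90.6, blood at 434 ± 63.5, lungs at 384 ± 49.7, VAT at 328 ± 59.04 and skin at 257 ± 26.4. ST2+ CD44hi Tregs had spleen at 458 ± 29.7 CPM (SD), lungs at 394 ± 50.5, blood at 385 ± 33.5, VAT at 312 ± 50.4, colon at 288 ± 70.2 and skin at 206 ± 44.8, and central Tregs had spleen at 456 ± 32.96 CPM (SD) and lungs at 448 ± 55.7. By ST2, Il27ra reached no call, and its largest difference was in colon, with 512, 334, 533, 351 and 446 CPM in ST2- and 320.2, 208 and 337 CPM in ST2+ libraries (-0.59, SE 0.16, adjusted p = 0.190). The lowest ST2- library was just below the highest ST2+ library, and without mouse 4 the difference was -0.78 with an adjusted p of 0.0371.

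Il12rb1, the chain shared by the IL-12 and IL-23 receptors, was highest in colon ST2- and VAT Tregs and lowest in blood ST2- and central Tregs. Colon ST2- libraries held 178, 74.7, 119, 93.6 and 120.2 CPM and blood ST2- libraries 34.7, 0, 41.4, 36.2 and 39.2 CPM. They did not overlap, with blood minus colon at -1.94 ± 0.51 (SE), adjusted p = 0.00493. Blood minus VAT was -1.71 ± 0.51 (SE), adjusted p = 0.0196 and lungs minus colon -1.71 ± 0.51 (SE), adjusted p = 0.0276 in ST2- Tregs. VAT ST2+ libraries held 126, 149.6, 117, 71.7 and 109 CPM, and no tissue pair of ST2+ Tregs was called. By their Il12rb1 means, ST2- CD44hi Tregs ranked as colon at 117 ± 39.1 CPM (SD), VAT at 99.6 ± 40.8, spleen at 55.9 ± 11.8, skin at 43.4 ± 36.8, lungs at 35.7 ± 23.7 and blood at 30.3 ± 17.1. Ranked alike, ST2+ CD44hi Tregs had VAT at 115 ± 28.5 CPM (SD), spleen at 64.7 ± 26.9, skin at 60.3 ± 27.1, lungs at 59.8 ± 15.8, colon at 54.7 ± 12.4 and blood at 40.9 ± 18.03, and central Tregs spleen at 25.1 ± 17.99 CPM (SD) and lungs at 17.2 ± 8.99. Libraries of 1 group ranged widely, for example 33.8, 106, 22.3, 13.3 and 41.04 CPM in skin ST2- Tregs, and no ST2 difference passed. In colon the 3 ST2+ libraries, at 68.1, 52.3 and 43.6 CPM, lay below all 5 ST2- libraries with -1.10 ± 0.59 (SE), adjusted p = 1.0.

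Il12rb2, which pairs with Il12rb1 in the IL-12 receptor, had 102 of its 255 counts in VAT ST2- and 97 in skin ST2- Tregs. VAT ST2- libraries held 14.4, 27.4, 8.72, 0 and 0 CPM, and the 5 VAT ST2+ libraries 0, 0, 0.919, 0 and 0 CPM. In skin the ST2- libraries held 20.5, 0, 10.8, 18.9 and 2.93 CPM and the ST2+ libraries 1.71, 0, 0, 0.834 and 0 CPM. The transcript was therefore present in some mice and listed at 0 in others, and in each tissue the ranges overlapped at 0. No fold is given, since VAT ST2+ libraries held 2 counts in all and skin ST2+ libraries 5, and a count of 0 allows up to 1.09 to 2.30 CPM, depending on the library. The ST2 difference in VAT had an adjusted p of 0.0713, and of 0.0282 with each mouse as a block, which counts as a call. The test over tissues in ST2- Tregs (adjusted p = 0.0122) was lost without mouse 1, 2 or 4 (0.0989, 0.0707 and 0.0774) and with DESeq2 (0.0527). The remaining 12 groups held 1 to 16 counts in all their libraries together.

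Of the interferon receptors, Ifngr1, the chain that binds interferon-γ, set spleen apart from every other tissue. Spleen ST2- libraries held 329.8, 354, 290.0, 423 and 369.7 CPM and spleen ST2+ libraries 398, 519.5, 412, 516 and 509 CPM. Colon libraries held 1095, 1242, 1107, 900.1 and 1209 CPM in ST2- and 1042, 1152 and 1201 CPM in ST2+ Tregs. Blood ST2- libraries were between them, at 455, 821, 667, 736 and 776 CPM. In both populations spleen was below each of the 5 other tissues by the test, and no spleen CD44hi library overlapped another tissue of its population. Among ST2- Tregs the log2 difference was -1.62 ± 0.13 (SE), adjusted p = 1.52e-15 for spleen minus skin, -1.65 ± 0.13 (SE), adjusted p = 6.69e-15 for spleen minus colon and -1.62 ± 0.13 (SE), adjusted p = 2.21e-14 for spleen minus VAT. It was -1.54 ± 0.13 (SE), adjusted p = 1.01e-13 for spleen minus lungs and 0.97 ± 0.13 (SE), adjusted p = 4.30e-07 for blood minus spleen.

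In ST2+ Tregs, the Ifngr1 differences were -1.18 ± 0.13 (SE), adjusted p = 4.04e-10 for spleen minus lungs, -1.10 ± 0.13 (SE), adjusted p = 2.03e-09 for spleen minus VAT, -1.26 ± 0.15 (SE), adjusted p = 2.13e-09 for spleen minus colon and -0.98 ± 0.13 (SE), adjusted p = 1.45e-08 for spleen minus skin. From high to low, the means of Ifngr1 in ST2- CD44hi Tregs were 1111 ± 134 CPM (SD) in colon, 1088 ± 122 in skin, 1085 ± 234 in VAT, 1029 ± 142 in lungs, 691 ± 143 in blood and 353 ± 49.3 in spleen. Those in ST2+ CD44hi Tregs were 1132 ± 81.4 CPM (SD) in colon, 1071 ± 139.7 in lungs, 1010.3 ± 65.3 in VAT, 927 ± 74.7 in skin, 806 ± 90.8 in blood and 471 ± 60.4 in spleen, and in central Tregs 878 ± 157 CPM (SD) in lungs and 366 ± 30.8 in spleen. Blood ST2- Tregs were in turn below VAT (-0.65, SE 0.13, adjusted p = 0.000216), colon (-0.68, SE 0.13, adjusted p = 6.50e-05) and skin (-0.65, SE 0.13, adjusted p = 5.47e-05). By ST2, Ifngr1 differed most in spleen, where it was higher in ST2+ libraries in 5 of 5 mice, but the log2 difference of 0.41 ± 0.13 (SE), adjusted p = 0.267 was under a fold of 1.5 and did not pass. The 2 central groups split by tissue too, with 366 ± 30.8 CPM (SD, n = 5) in spleen and 878 ± 157 CPM (SD, n = 5) in lungs. Spleen and lung cells had been enriched for CD4 by magnetic beads and the other tissues had not. Per the paper's methods, lungs, VAT, colon and skin were also digested with collagenase. Spleen was instead disrupted mechanically, and blood was only freed of red cells by lysis. The part of these steps in the tissue differences of any of the receptor genes was not tested.

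Ifnar1, a chain of the type I interferon receptor, was lowest in spleen and blood and highest in lungs and skin. Spleen ST2+ libraries held 194, 226, 311, 266 and 245 CPM and lung ST2+ libraries 599, 732, 669, 639 and 541 CPM. The 2 groups did not overlap, with spleen minus lungs at -1.36 ± 0.19 (SE), adjusted p = 2.93e-07. Spleen minus skin was -1.28 ± 0.19 (SE), adjusted p = 2.13e-07 and blood minus lungs -1.17 ± 0.20 (SE), adjusted p = 5.27e-05 in ST2+ Tregs. In ST2- Tregs these differences were -1.25 ± 0.19 (SE), adjusted p = 2.24e-06 for spleen minus lungs, -1.13 ± 0.19 (SE), adjusted p = 2.65e-06 for spleen minus skin and -0.95 ± 0.19 (SE), adjusted p = 0.000564 for blood minus lungs. The same 8 of 15 tissue pairs, in the same directions, were called in ST2- and in ST2+ Tregs. The order of Ifnar1 means in ST2- CD44hi Tregs was lungs at 541 ± 73.97 CPM (SD), skin at 500.2 ± 33.4, VAT at 441 ± 119, colon at 318 ± 37.6, blood at 281 ± 86.4 and spleen at 228 ± 26.8. ST2+ CD44hi Tregs had lungs at 636 ± 71.98 CPM (SD), skin at 602 ± 80.9, VAT at 440.3 ± 123, colon at 365 ± 72.8, blood at 283 ± 82.7 and spleen at 248 ± 43.8, and central Tregs had lungs at 435 ± 115 CPM (SD) and spleen at 323 ± 53.8. By ST2 the log2 differences of Ifnar1 ran up to 0.27 in skin and none passed, and its interaction had an adjusted p of 1.0.

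Il17ra, the common chain of the IL-17 receptors, had its lowest levels in VAT and colon, as Il6ra did. VAT ST2- libraries held 127, 78.2, 199, 103 and 85.6 CPM, colon ST2- libraries 139.7, 98.3, 123, 157 and 71.3 CPM and lung ST2- libraries 423, 213, 308, 209.8 and 309 CPM. Lungs did not overlap VAT or colon, with lungs minus VAT at 1.30 ± 0.24 (SE), adjusted p = 0.000497 and lungs minus colon at 1.31 ± 0.24 (SE), adjusted p = 0.000156. Blood minus colon was 1.20 ± 0.24 (SE), adjusted p = 0.000168 and blood minus VAT 1.19 ± 0.24 (SE), adjusted p = 0.000257. In ST2+ Tregs lungs minus colon was 1.23 ± 0.29 (SE), adjusted p = 0.00879 and colon minus skin -1.14 ± 0.29 (SE), adjusted p = 0.00326. By their Il17ra means, ST2- CD44hi Tregs ranked as lungs at 293 ± 87.4 CPM (SD), blood at 272 ± 81.4, skin at 209.5 ± 30.4, spleen at 167 ± 26.5, VAT at 119 ± 48.5 and colon at 118 ± 34.03. Ranked alike, ST2+ CD44hi Tregs had lungs at 231 ± 44.4 CPM (SD), skin at 217 ± 49.1, blood at 189.6 ± 81.4, spleen at 131 ± 14.7, VAT at 115 ± 24.5 and colon at 98.3 ± 34.9, and central Tregs lungs at 353 ± 93.7 CPM (SD) and spleen at 275 ± 31.2. No ST2 difference of Il17ra was called, the largest being -0.52 ± 0.25 (SE), adjusted p = 0.249 in blood, where it was lower in ST2+ libraries of 4 of 4 mice.

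Effector (ST2- CD44hi) and central (ST2- CD44lo CD62L+) Tregs of spleen and of lungs were compared to ask how the receptors differ between these states. In lungs Il10ra was higher in effector Tregs. Central libraries of lungs held 59.6, 63.2, 104, 24.2 and 63.03 CPM and effector libraries, listed above, were all higher, with a log2 difference of 1.56 ± 0.29 (SE), adjusted p = 8.25e-05. It was the 1 gene of 10 called in lungs, where 5.53% of all genes were, and the 1 of 10 without overlap, against 7.03% of all genes. Il10rb was at 98.5, 91.4, 96.1, 135 and 115 CPM in central and 131, 153, 152, 148 and 170.3 CPM in effector libraries of lungs, and its log2 difference of 0.49 ± 0.12 (SE), adjusted p = 0.00355 was under the fold of 1.5. The ranges of Il10rb overlapped, and without mouse 4 its difference was 0.60 (adjusted p = 0.00342), which counts as a call. Il6st was highest of all groups in central Tregs of lungs, at 383, 369, 489, 271 and 496 CPM, with effector minus central at -0.67 ± 0.25 (SE), adjusted p = 0.111.

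In spleen 0 of 10 genes were called, where 5.03% of all genes were, with 5 of the 10 at an unadjusted p under 0.05, against 15.4% of all genes. DESeq2 called 2 of 10, and 6.49% of all genes, and the fit with each mouse as a block called 2 of 10, and 5.41% of all genes. Central libraries of spleen held 166, 68.7, 68.9, 76.9 and 47.8 CPM of Il10ra, and effector libraries the values given above. The effector library was the higher in mice 2 to 5, and mouse 1 went the other way, with 71.4 CPM in effector and 166 CPM in central Tregs. In the same libraries of mouse 1, Il10, Ebi3 and Cd44 were at 24.3, 75.2 and 127 CPM in effector and 0, 0.366 and 50.2 CPM in central Tregs, the order seen in the other mice. The Il10ra difference was 0.86 ± 0.28 (SE), adjusted p = 0.0590, and without mouse 1 it was 1.43 (adjusted p = 0.000504). With each mouse as a block it passed too, at 0.91 with an adjusted p of 0.0223.

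In spleen 2 of 10 genes, Il17ra and Ifnar1, did not overlap between effector and central Tregs, against 9.49% of all genes. Il17ra was at 312, 286, 290.4, 232 and 256 CPM in central and 196, 191, 166, 138 and 145 CPM in effector libraries, with a log2 difference of -0.72 ± 0.24 (SE), adjusted p = 0.0599. With each mouse as a block Il17ra passed, at -0.72 with an adjusted p of 0.0304. Ifnar1 was at 316, 281, 417, 298 and 302 CPM in central and 205, 204, 259, 255 and 218 CPM in effector libraries, all lower, and its log2 difference was -0.50 ± 0.19 (SE), adjusted p = 0.123. Il6ra had effector minus central differences of -0.64 ± 0.27 (SE), adjusted p = 0.183 in spleen and -0.48 ± 0.27 (SE), adjusted p = 0.341 in lungs, with the effector library the lower in 5 of 5 mice of both tissues. Il12rb1 had 1.17 ± 0.51 (SE), adjusted p = 0.210 in spleen and 1.05 ± 0.52 (SE), adjusted p = 0.265 in lungs. No gene of the 10 passed the test of a different effector difference in spleen and lungs, which 0.129% of all genes passed, and 2 of the 10 had an unadjusted p under 0.05, against 6.27% of all genes. The effector libraries of these comparisons are the ST2- libraries of the ST2 comparisons, so the 2 sets of differences share samples.

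Marker genes differed between these populations as well. In spleen the epithelial sum was 53.2 to 88.2 CPM in effector and 16.5 to 22.7 CPM in central libraries, where 3 of the 10 genes had counts in each and Krt5, Krt8, Krt14, Sftpc and Scgb1a1 were at 0. The sum of 6 B cell genes was 73.5 to 110.2 CPM in effector and 30.3 to 44.1 CPM in central libraries of spleen, with counts of 3 of 6 in each and Ms4a1 at 0. The fibroblast and endothelial sum was 158 to 177 CPM in effector and 229 to 371 CPM in central libraries of spleen, with counts of 5 and 1 of 6 genes, and 170.3 to 263 and 302 to 398 CPM in those of lungs, with counts of 3 of 6 in each. Cdh5 was at 0 in all 4 groups. The sum of 7 Treg identity genes, all with counts, was 2863 to 3358 CPM in effector and 2378 to 2561 CPM in central libraries of spleen, and 3295 to 3898 and 2714 to 3216 CPM in those of lungs. None of these sums overlapped between effector and central libraries of the same tissue, and their part in the receptor values was not tested.

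**Figure D5:**
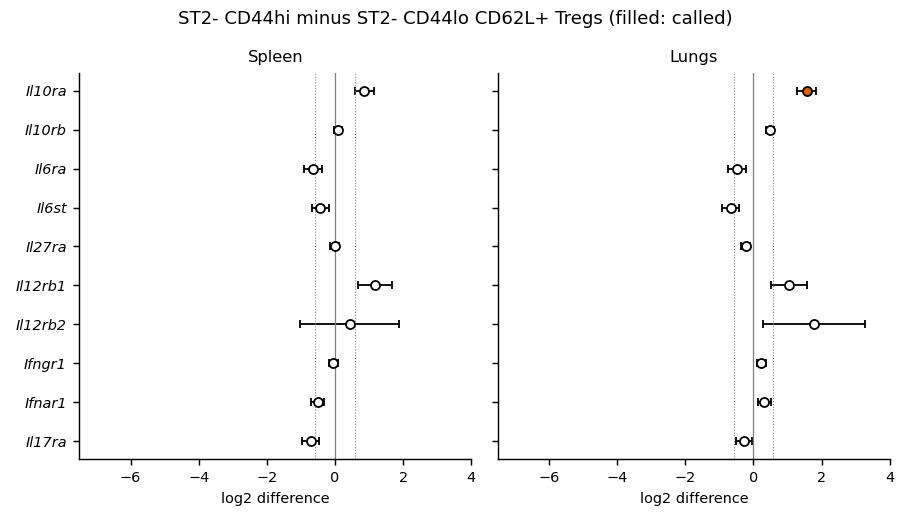
Difference between ST2- CD44hi (effector) and ST2- CD44lo CD62L+ (central) Tregs of each receptor gene in spleen and lungs (horizontal axis, log2, effector minus central), with bars of 1 SE from the fit over all libraries. Filled points passed the test and dotted lines mark a fold of 1.5. Il10ra lies to the right of 0 and Il6ra and Il6st to the left in both tissues.

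Other genes of these pathways were counted in the same fits. Of 17 further receptor chains, 19 ligands, 14 kinases, STATs and adaptors and 10 negative regulators, 11, 9, 14 and 10 were tested. Among ligands, Il10 rose in ST2+ Tregs of VAT, from 128 ± 52.8 CPM (SD, n = 5) to 471 ± 178 CPM (SD, n = 5), with a log2 difference of 1.87 (SE 0.35, adjusted p = 0.000321), the tissue with the most Il10ra. It was called in blood too (3.53, SE 1.02, adjusted p = 0.0306), where it lay near the limit of detection at 0.307 ± 0.285 CPM (SD, n = 5) and 4.39 ± 3.23 CPM (SD, n = 4). Clcf1, a ligand that signals through gp130, fell in ST2+ Tregs of blood (-2.45, SE 0.47, adjusted p = 0.000476). Colon ST2- Tregs had the highest mean of Il10, 666 ± 168 CPM (SD, n = 5). Of the 9 tested ligands 2 were called in blood and 1 in VAT, against 4.04% and 3.12% of all genes. In spleen, lungs, colon and skin 0 were called, against 0.319%, 0.782%, 0.0683% and 0.213% of all genes.

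Among receptor chains, Ifngr2, the partner of Ifngr1, fell in ST2+ Tregs of blood (-1.11, SE 0.28, adjusted p = 0.0112), the 1 of 11 called there, and 0 of 11 were called in the other tissues. The paper lists Ifngr2 for blood and lungs, Il17rb for lungs and Il23r for colon among its genes that differed by ST2. Of all genes 4.04% were called in blood and 0.0683% to 3.12% in the other tissues. Among signalling genes Irf9, which takes part in type I interferon signalling, fell in ST2+ Tregs of VAT (-0.79, SE 0.22, adjusted p = 0.0249). Cish, a feedback inhibitor of cytokine signals, rose in ST2+ Tregs of lungs (0.91, SE 0.17, adjusted p = 0.000778) and VAT (0.75, SE 0.17, adjusted p = 0.003002). Usp18, which restrains type I interferon signals, fell in ST2+ Tregs of lungs, from 91.2 ± 28.9 CPM (SD, n = 5) to 13.98 ± 8.55 CPM (SD, n = 5), with a log2 difference of -2.72 (SE 0.73, adjusted p = 0.0483). In the negative regulators these were 2 of 10 calls in lungs and 1 of 10 in VAT, with 0 in blood, spleen, colon and skin. Of all genes 0.782% were called in lungs and 3.12% in VAT. The median log2 difference of the 14 signalling genes ran from -0.27 in colon to 0.18 in skin, and that of the 10 negative regulators from -0.16 in colon to 0.13 in blood. That of the 9 ligands ran from 0.01 in skin to 0.67 in spleen and that of the 11 receptor chains, several of which had few counts, from -1.26 in VAT to 0.52 in colon.

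Between effector and central Tregs, Il10 had 0 counts in every central library of spleen and 16.5 ± 10.4 CPM (SD, n = 5) in effector Tregs, and in lungs it was at 0.632 ± 0.458 CPM (SD, n = 5) and 47.05 ± 26.03 CPM (SD, n = 5). Ebi3, a subunit of IL-27 and IL-35, rose in effector Tregs of spleen (4.38, SE 0.53, adjusted p = 5.06e-09) and lungs (3.38, SE 0.53, adjusted p = 4.06e-06). Ifngr2 fell in effector Tregs of both, by 1.07 in spleen and 1.14 in lungs on the log2 scale (adjusted p = 0.00374 and 0.00147), while Ifngr1 had -0.05 ± 0.13 (SE), adjusted p = 1.0 and 0.23 ± 0.13 (SE), adjusted p = 0.353. In lungs Il17rb and Il23r, receptor chains for IL-25 and IL-23, were called higher in effector Tregs, at 12.3 ± 9.38 CPM (SD, n = 5) and 4.07 ± 4.51 CPM (SD, n = 5) against at most 0.525 CPM and 0, and Clcf1 was called lower (-1.37, SE 0.41, adjusted p = 0.0289). In spleen Ptpn11 was called higher (0.90, SE 0.22, adjusted p = 0.00476), and so was Ifng, at 9.50 ± 6.17 CPM (SD, n = 5) against 0.556 ± 1.24 CPM (SD, n = 5). In all, spleen had 1 of 11 receptor chains, 3 of 9 ligands, 0 of 14 signalling genes and 1 of 10 negative regulators called, and lungs 3, 3, 0 and 0. Of all genes 5.03% were called in spleen and 5.53% in lungs.

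Between tissues, 8 of 11 receptor chains, 6 of 9 ligands, 9 of 14 signalling genes and 6 of 10 negative regulators differed in ST2- Tregs, and 8, 7, 10 and 7 in ST2+ Tregs, against 43.5% and 47.6% of all genes. Stat3, which carries the IL-6 and IL-10 signals, had its highest means in skin, 1164 ± 69.8 CPM (SD, n = 5) in ST2- and 1382 ± 81.01 CPM (SD, n = 5) in ST2+ Tregs, against 287 to 509 CPM in the other CD44hi groups (adjusted p = 2.96e-15 in ST2- and 2.15e-20 in ST2+ Tregs). Jak2, a kinase of the interferon-γ and IL-12 receptors, was highest in skin as well, at 762 ± 86.5 CPM (SD, n = 5) and 955 ± 45.1 CPM (SD, n = 5). Skin was thus high in Il6st, Stat3 and Jak2 and low in Il27ra. The epithelial sum was 86.3 to 1154 CPM (median 152) in skin ST2- and 136 to 1095 CPM (median 299) in skin ST2+ libraries. In colon it was 86.3 to 1355 and 254 to 2061 CPM. The fibroblast and endothelial sum was 59.2 to 598 and 27.3 to 170 CPM in skin, and 56.8 to 680 and 342 to 952 CPM in colon. The part of these genes in the skin and colon values was not tested. The interaction of tissue and ST2 was passed by genes that include Ifngr2, Il10, Clcf1 and Stat5b of these lists (adjusted p = 0.0152, 0.00425, 0.0395 and 0.0269).

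Across the 14 group means of log2 CPM, which share mice and libraries, some receptor genes had like patterns. Il6ra and Il17ra had the highest Pearson r of the 45 pairs, 0.90, both being low in VAT and colon. Il12rb1 ran opposite to them, with r of -0.84 to Il17ra and -0.81 to Il6ra, and it ran with Il10ra at 0.79. The paired chains were less alike, with 0.39 for Il10ra and Il10rb, 0.57 for Il6ra and Il6st and 0.18 for Il12rb1 and Il12rb2, and Ifngr1 and Ifnar1 had 0.68. Of all 13173 genes, those most like Ifngr1 over the 14 groups were Tnfaip3 (r = 0.98), Rnf125 (r = 0.97) and Rgs2 (r = 0.97), and those most like Il10ra were Rbl2 (r = 0.94), Cyp20a1 (r = 0.93) and Cxcl2 (r = 0.93). For Il6st they were Gm10638 (r = 0.94), Plekha1 (r = 0.93) and Sec24a (r = 0.92), Gm10638 being near the floor of detection in every group, and for Il6ra Setd1b (r = 0.94), Rbm5 (r = 0.91) and Prpf38b (r = 0.91). The genes most like Il17ra were Tet3 (r = 0.94), Bcas2 (r = 0.93) and Smchd1 (r = 0.93), those most like Il27ra Fam189b (r = 0.95), Card6 (r = 0.95) and 9930111J21Rik1 (r = 0.94) and those most like Ifnar1 Actg1 (r = 0.93), Snx18 (r = 0.92) and Arl5b (r = 0.92). For Il10rb they were Haus4 (r = 0.92), Fuom (r = 0.91) and Zyx (r = 0.91), for Il12rb1 Slc25a10 (r = 0.92), Pdcd1lg2 (r = 0.91) and Adap1 (r = 0.90) and for Il12rb2 Cercam (r = 0.90), Rasl12 (r = 0.87) and Mkrn2 (r = 0.87). These are descriptions over 14 points, without a test.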

How the data were processed

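The deposited values were raw counts of reads per gene and library, with no scaling or gene filter. Per the paper's methods and the submitters' processing notes, the authors made SMART-Seq v4 and NexteraXT libraries, sequenced single reads, trimmed them, aligned them with STAR to GRCm38 and counted them per gene with HTSeq (0.4.1 in the notes). Counting mode and strand are not stated in those sources. Each of the 70 libraries had a column and 0 columns were left unused. The 10 receptor genes and the other lists were chosen with earlier results of these data known.

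Of 53465 gene IDs, 53274 were found in the GENCODE M21 annotation (GRCm38) and 21865 were protein-coding. Libraries of 1000000 counts or fewer were left out, as were genes under 1 CPM in more than 90% of kept libraries, which left 67 libraries and 13173 genes. In the median library of 2039002 counts, 1 CPM stands for about 2 counts, so values near that level are imprecise. Counts were scaled with TMM factors of the whole table and fitted with 1 term for each of the 14 groups by the quasi-likelihood test of edgeR 4.0.16 (R 4.3.3). P-values were adjusted over all genes tested by Benjamini and Hochberg's method. A contrast was called at an adjusted p of at most 0.05 and a fold of at least 1.5, and tests over 6 tissues and interactions at the adjusted p alone. Means ± SD are of CPM, and differences ± SE come from the fit. Floors of 3 counts cover counting error only. For correlations CPM were put on the log2 scale after adding a prior count of 2. Tables and figures were made in Python 3.11.15 with pandas 2.3.3, numpy 2.4.6 and matplotlib 3.10.9.

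The mouse numbers pair libraries of the same animal. For 27 pairs of ST2+ and ST2- libraries from the same tissue and mouse, the correlation of their deviations over 9207 genes averaged 0.0834, was lowest at 0.00628 and exceeded 0.1 in 8 pairs. No 2 libraries of a group held identical counts (129 pairs).

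The alternatives were DESeq2 1.42.0, voom with quality weights in limma 3.58.1, a replicate block for each mouse, median-of-ratios factors, no gene filter (18536 genes), 1 CPM in 50% of libraries (10400 genes), all 70 libraries (13222 genes), sorted cells as a covariate, fits of the compared libraries only, and leaving out each mouse. Fits without colon libraries and without libraries of under 100 sorted cells were added after the data were seen. On simulated counts of the lung ST2 comparison (13173 genes), the edgeR fit recovered 30 of 100 genes changed 2-fold and 53 of 100 changed 4-fold, with 3 false calls.

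The receptor genes were given in every comparison. Of the other lists, counts were given with up to 3 called genes in each direction by smallest adjusted p, and for each receptor gene the 3 genes of highest Pearson r over the 14 group means. Marker lists were given as summed CPM. Some results of these lists are not reported here.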

Additional observations from a re-analysis of the deposited data

Results flagged for a closer look

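In 122 sets of 4 or 5 libraries of 1 gene and group, the gap of the highest or lowest library to the others was set against the range (Dixon's 95% limit), and 7 sets passed it, where chance alone passes about 1 in 20. In spleen ST2- CD44hi Tregs, mouse 1 gave the lowest Il10ra value, 71.4 CPM, with the other libraries at 165 to 187 CPM. Il10ra in spleen ST2- CD44lo CD62L+ Tregs was highest in mouse 1, at 166 CPM, and the others lay at 47.8 to 76.9 CPM. In lungs ST2- CD44lo CD62L+ Tregs, mouse 4 gave the lowest Il27ra value, 351 CPM, with the other libraries at 458 to 493 CPM. Il12rb1 in blood ST2- CD44hi Tregs was lowest in mouse 2, at 0 CPM, and the others lay at 34.7 to 41.4 CPM. In VAT ST2+ CD44hi Tregs, mouse 5 gave the lowest Ifnar1 value, 225 CPM, with the other libraries at 462 to 524 CPM. Ifnar1 in spleen ST2- CD44lo CD62L+ Tregs was highest in mouse 3, at 417 CPM, and the others lay at 281 to 316 CPM. In spleen ST2+ CD44hi Tregs, mouse 1 gave the highest Il17ra value, 157 CPM, with the other libraries at 122 to 126 CPM. The pair of Il10ra values belongs to 1 mouse and both spleen ST2- groups, whose effector difference is given above with and without that mouse. The Il12rb1 value of 0 in blood came from a library that held all other receptor genes but Il12rb2. No cause was tested for any of these values.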

How the results depend on the processing

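Receptor genes called in the fit described were Il6st in blood, Il10ra in spleen and lungs and both in VAT by ST2, and Il10ra between effector and central Tregs of lungs. All 96 values of these calls under the alternatives kept their direction, and 80 were still called. DESeq2 called 3 of 10 in blood, 2 in lungs, 1 in colon, 2 between effector and central Tregs of spleen and 1 in the interaction. Of all genes it called 6.83%, 1.78%, 0.228%, 6.49% and 3.62%, in that order. Voom, with quality weights, called 2 in blood, 1 in colon, 1 in VAT, 2 in lungs, 2 in spleen, 4 and 2 between effector and central Tregs of spleen and lungs, and 1 in the interaction. Its shares of all genes were, in the same order, 3.31%, 2.24%, 2.98%, 2.66%, 1.71%, 11.6%, 9.28% and 6.63%. With each mouse as a replicate block they were 3 in blood, 3 in VAT, 2 between effector and central Tregs of spleen and 1 in the interaction, as given above, and the block changed no other call of the 10 genes. That fit called 4.42%, 3.64%, 5.41% and 1.82% of all genes in these comparisons. With all 70 libraries spleen and lungs had 0 and 0 and VAT 1, where the 3 shallow libraries entered the shared spread. Of all genes 0.182%, 0.439% and 1.91% were called there. Fits of the compared libraries only gave 2 in lungs, 1 in VAT and 2 and 2 between effector and central Tregs of spleen and lungs, against 1.91%, 0.668%, 7.67% and 5.59% of all genes. The sorted cells as a covariate gave 1 in VAT (3.45% of all genes), and 1 CPM in 50% of libraries gave 1 in the interaction (1.93% of all genes). Of the fits added later, that without colon libraries gave 2 in blood, 0 in spleen and 2 in lungs, against 3.83%, 0.258% and 0.767% of all genes. That without libraries of under 100 cells gave 1 in VAT and 2 between effector and central Tregs of spleen, against 2.78% and 5.4%. Leaving out each mouse gave 0 to 1 in colon, 1 to 1 in blood, 1 to 2 in VAT, 0 to 0 in spleen, 0 to 0 in skin, 1 to 1 in lungs, 0 to 1 and 1 to 2 between effector and central Tregs of spleen and lungs, 8 to 10 and 7 to 8 between tissues in ST2- and ST2+ Tregs and 0 to 0 in the interaction. By ST2 these fits called 0.0152% to 0.129% of all genes in colon, 1.78% to 3.42% in blood and 1.76% to 3.94% in VAT. In spleen they called 0.121% to 0.228%, in skin 0.0911% to 0.19% and in lungs 0.266% to 0.622%. Between effector and central Tregs the shares were 3.42% to 4.26% in spleen and 3.7% to 4.56% in lungs. Between tissues they were 32.6% to 37.9% in ST2- and 32.4% to 44% in ST2+ Tregs, and in the interaction 0.304% to 1.03%. The cause of these changes was not tested. Of 961 values of genes not called, 32 changed sign under an alternative.

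Calls over all genes also moved by over 1.5 times. In blood they were 532 in the reported fit and 102 with the compared libraries only, in spleen 42 and 225 with voom, in lungs 103 and 350 with voom, and in VAT 411 and 88 with the compared libraries only. In colon they were 9 and 295 with voom, in skin 28 and 102 with DESeq2, between effector and central Tregs 663 and 1523 in spleen and 729 and 1223 in lungs with voom, and in the interaction 189 and 873 with voom. With a median library of 2039002 counts, differences of Il12rb2 and other genes near 1 CPM were not resolved, and the 3 colon ST2+ libraries limit the colon comparison.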

Other observations

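Receptor reads were also found in the 3 shallow libraries that entered no comparison. The blood ST2+ library of mouse 1, made from 66 cells, held 488666 counts. Its unscaled levels were 1623 CPM of Ifngr1, 248 CPM of Il6ra, 244 CPM of Ifnar1 and 176 CPM of Il10rb, with 1 count of Il10ra, 2 of Il6st and 1 of Il27ra. The 4 kept blood ST2+ libraries held 149 to 273 CPM of Il10ra, 344 to 418 CPM of Il27ra and 46.8 to 92.5 CPM of Il6ra, so this library was outside their range in all 3. The colon ST2+ library of mouse 5 held 62333 counts, with 130 counts of Ifngr1, 39 of Il10ra, 15 of Ifnar1, 14 of Il27ra and 0 of Il6ra. The colon ST2+ library of mouse 2 held 3582 counts, too few for a level of any of the 10 genes, with 23 counts of Ifngr1.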
